A study of Mus musculus with 3 samples.

Results

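Secretory and goblet cells of the mouse nasal mucosa were described here in 3 single-cell RNA libraries. They were selected on measured expression, as cell barcodes with at least 3 UMIs (unique molecular identifiers, each counting 1 captured RNA molecule) of at least 3 of the 6 secretory genes Scgb3a1, Muc5b, Muc5ac, Agr2, Bpifb1 and Tff2. They also carried fewer than 3 of the 6 genes Alox12e, Gp2, Clca1, Slco1a5, Serpinb11 and Kcnj16 at 2 or more UMIs, and no UMI of the leukocyte gene Ptprc. Of 32376 kept barcodes, 462 met the rule. These were 196 of 12149 in the library of papain with lonidamine, 206 of 10712 in the papain library and 60 of 9515 in the PBS library. Since the rule reads expression, the 12 genes it names and Ptprc are described below and support nothing.

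The mice were C57BL/6 (C57BL/6J in the genotype label), with equal numbers of males and females planned in each group. Papain with lonidamine mice received 20 µg papain into the nose and 10 mg/kg lonidamine into the stomach. Papain mice received the same dose of papain into the nose and PBS into the stomach, and control mice received PBS into the nose. Papain, a plant cysteine protease, raises allergic airway inflammation, and lonidamine inhibits hexokinase and the transport of lactate and pyruvate. Each group's mucosa was pooled across its mice into 1 library. The labels do not say how many mice there were, how old they were or when they were dosed. In the labels the papain library is also called Fibroblast, and its treatment label was followed here. With 1 library per group no difference below has a replicate check, no test was made, and no p-value is given. Square brackets hold 95% intervals, which cover counting error only.

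Airway mucus is built from the gel-forming mucins Muc5ac and Muc5b, which are folded and joined in the endoplasmic reticulum with the help of Agr2, glycosylated in the Golgi and stored in granules. Type 2 cytokines such as interleukin-13 act on secretory epithelium through Stat6 and, with the transcription factor Spdef, drive it towards Muc5ac-rich goblet cells. In the nose, secretory cells also release antimicrobial proteins of the BPI-fold, lectin and WAP families onto the mucosal surface.

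The libraries held 89164040, 86197965 and 82399462 UMIs in the order papain with lonidamine, papain, PBS, and secretory and goblet cells contributed 3262691, 3425636 and 1182788 of them. The median secretory or goblet cell had 15343, 15458 and 16864 UMIs, against 5892, 6612 and 7416 for all kept barcodes of those libraries. A count of 0 in the summed cells allows up to 0.919, 0.876 and 2.54 CPM (a gene's UMIs per 1000000 summed UMIs of these cells). The libraries shared 22 to 38 barcodes pairwise, none of them a secretory or goblet cell in both libraries of a pair. The barcode of 1 such cell with lonidamine also occurred in the papain library. 18S ribosomal RNA made up 2.54%, 2.75% and 0.818% of these cells' UMIs, and its part in the ratios to PBS was not tested.

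The cells carried an epithelial secretory programme beyond the genes of the rule. Bpifa1, a BPI-fold protein of the airway surface, was their most abundant transcript, with 396292 of the UMIs of these cells in papain with lonidamine, 559771 in papain and 221177 in PBS, log2 ratios of CPM of -0.43 (lonidamine to papain) and -0.19 (papain to PBS). The C-type lectin Reg3g stood at 23374, 27890 and 15886 CPM, and the WAP-domain protein Wfdc2 at 11793, 8735 and 7575 CPM. Scgb1c1, a secretoglobin of nasal mucosa, summed to 19430, 14018 and 17275 CPM, but the median cell held 956, 797 and 3706 CPM, 16.5%, 26.2% and 46.0% of the UMIs came from 1 cell, and after thinning 74.5%, 65.8% and 86.0% of olfactory neurons had a UMI, against 89.9%, 88.3% and 98.3% of these cells (unthinned 99.0%, 96.6% and 100%). Epcam had 688, 838 and 807 CPM and Krt8 had 1493, 1490 and 1390 CPM, as epithelial cells do. Scgb1a1 and Scgb3a2, the defining secretoglobins of lung club cells, had no UMI in any of the 462 cells. Bpifa1 was uneven among cells: single cells ranged from 0 to 371846 CPM with lonidamine (median 127477), from 48.3 to 411129 CPM in papain (median 153507) and from 73.8 to 681217 CPM in PBS (median 183023).

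**Figure D1:**
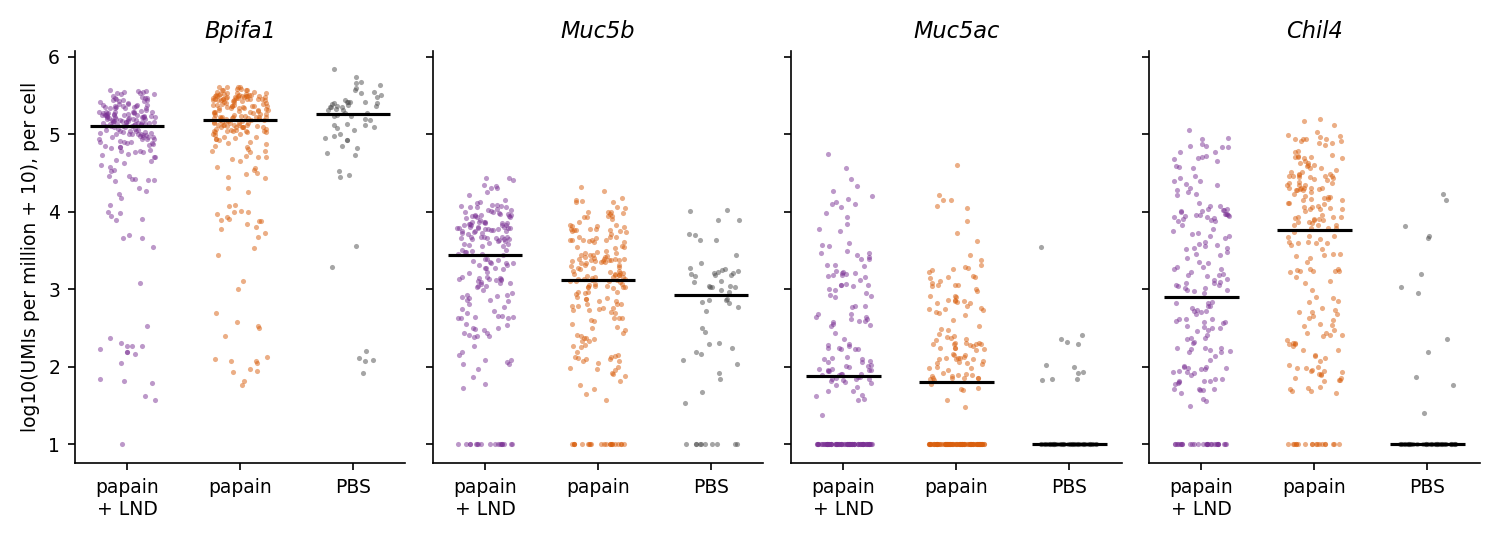
Level of 4 genes in each secretory and goblet cell, as log10 of that cell's CPM plus 10, for 196 papain with lonidamine, 206 papain and 60 PBS cells. Points are cells and black lines are medians; Muc5b and Muc5ac belong to the selection rule, Bpifa1 was high in most cells of all 3 libraries, and Chil4 and Muc5ac were at 0 in most PBS cells.

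Some of the cells also carried markers of other cell types. At least 3 markers at 2 or more UMIs of mature olfactory neurons were found in 13 papain with lonidamine, 8 papain and 13 PBS cells, of serous glands in 37, 3 and 3 cells, and of ciliated cells in 10, 4 and 2 cells. Markers of at least 1 of 8 other types (these 3, ionocytes, tuft cells, fibroblasts, endothelial cells and leukocytes) were present in 26.5%, 10.2% and 28.3% of the cells, and for genes named for their ratio, values without these cells are given where the fold moved by more than 1.5 times or fell short of 2-fold. Scrublet, a caller of doublets (2 cells under 1 barcode), marked 7, 5 and 1 of the cells, which were kept. Sustentacular markers were common in all libraries (163, 165 and 38 cells, or 83.2%, 80.1% and 63.3%). They summed to 8831, 7769 and 4306 CPM, against 7000, 6336 and 1674 CPM in all other kept barcodes. They are not among the 8 types, so values without cells carrying markers of another type still include cells with sustentacular markers. One sustentacular marker, the carbonyl reductase Cbr2, stood at 6544, 5211 and 2299 CPM.

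Secretory and goblet cells made up 1.61% [1.40, 1.85] of kept barcodes in papain with lonidamine, 1.92% [1.67, 2.20] in papain and 0.631% [0.482, 0.811] in PBS. The papain share was 3.05 times the PBS share [2.28, 4.14], and the lonidamine share 0.839 times the papain share [0.686, 1.03]. A share also depends on the other cells captured: the libraries held 1674, 1543 and 3062 mature olfactory neurons. The rule reads UMI counts and the markers themselves were more abundant under papain, so the shares describe cells above a fixed level, not a fixed cell type. With every barcode first thinned to 4000 UMIs, 2.28%, 2.49% and 0.250% of barcodes met the rule, and the papain share was 9.98 times the PBS share. With at least 2 markers in place of 3 the papain to PBS ratio was 1.52, and with at least 4 it was 5.24.

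The sexes did not contribute alike. Cells were assigned to a sex by Xist against the Y-linked genes Ddx3y, Eif2s3y, Kdm5d and Uty. Although equal numbers of males and females were planned, the sex makeup of all kept barcodes differed between libraries. Of those assigned to a sex, 83.3% were female in papain with lonidamine, 73.4% in papain and 56.8% in PBS. In papain with lonidamine, 178 female and 4 male secretory and goblet cells were found, in papain 125 and 52, and in PBS 43 and 10. As a share of kept barcodes of that sex, female cells made up 2.25% [1.93, 2.60], 2.14% [1.78, 2.54] and 1.10% [0.795, 1.47]. Male cells made up 0.251% [0.0685, 0.642], 2.45% [1.83, 3.20] and 0.335% [0.161, 0.616]. The female share in papain with lonidamine was 1.05 times that in papain, while the male share in papain with lonidamine was 0.103 times that in papain. The cells cannot be traced to single mice, so a difference between sexes and one between mice of a pool cannot be told apart.

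**Figure D2:**
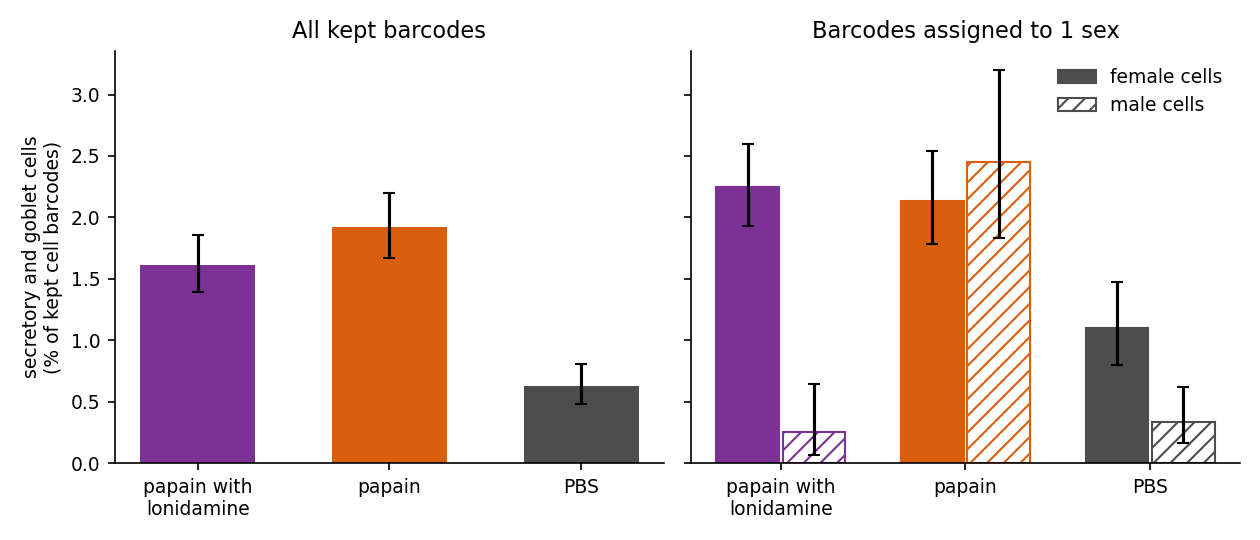
Secretory and goblet cells as a percentage of kept cell barcodes, in all barcodes (left) and in barcodes assigned to female (filled) or male (hatched) cells (right). Bars are shares and lines 95% exact binomial intervals (counting error only); male cells reached 2.45% in papain alone, against 0.251% in papain with lonidamine and 0.335% in PBS.

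Among the selection genes, Agr2, a protein disulfide isomerase needed for mucin folding, and Tff2, a trefoil peptide packed with mucin, were at 3 or more UMIs in nearly all treated cells. Agr2 reached that level in 97.4%, 97.6% and 91.7% of cells in the order papain with lonidamine, papain, PBS, and Tff2 in 96.4%, 97.1% and 86.7%. Muc5b followed at 87.2% [81.7, 91.6], 79.1% [72.9, 84.5] and 70.0% [56.8, 81.2]. Muc5ac, the mucin of induced goblet cells, was at that level in 72 of 196 cells with lonidamine (36.7% [30.0, 43.9]), in 69 of 206 in papain (33.5% [27.1, 40.4]) and in 6 of 60 in PBS (10.0% [3.76, 20.5]). Bpifb1 marked 52.6%, 59.2% and 60.0% of cells and the secretoglobin Scgb3a1 25%, 40.8% and 23.3%.

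Summed over cells, Muc5ac stood at 1309, 772 and 55.8 CPM, but 11.6%, 28.0% and 56.1% of its UMIs came from the single highest cell. Muc5b stood at 4710, 2851 and 1601 CPM, with 5.17%, 4.24% and 17.8% from the highest cell. Thinned to 5000 UMIs per cell, which left out 7, 9 and 2 shallower cells, Muc5ac was detected in 45.5% [38.3, 52.9], 33.5% [27.0, 40.6] and 8.62% [2.86, 19.0] of cells. Unthinned, those shares were 59.7%, 52.9% and 20.0%. In mature olfactory neurons thinned alike, a type that should lack the gene, Muc5ac was detected in 1.23% and 1.61% of papain with lonidamine and papain cells and in 0 of 2544 PBS cells, which allows a share of up to 0.118%. In female cells alone Muc5ac had 1425, 927 and 72.1 CPM, and the 52 male papain cells had 265 CPM.

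**Figure D3:**
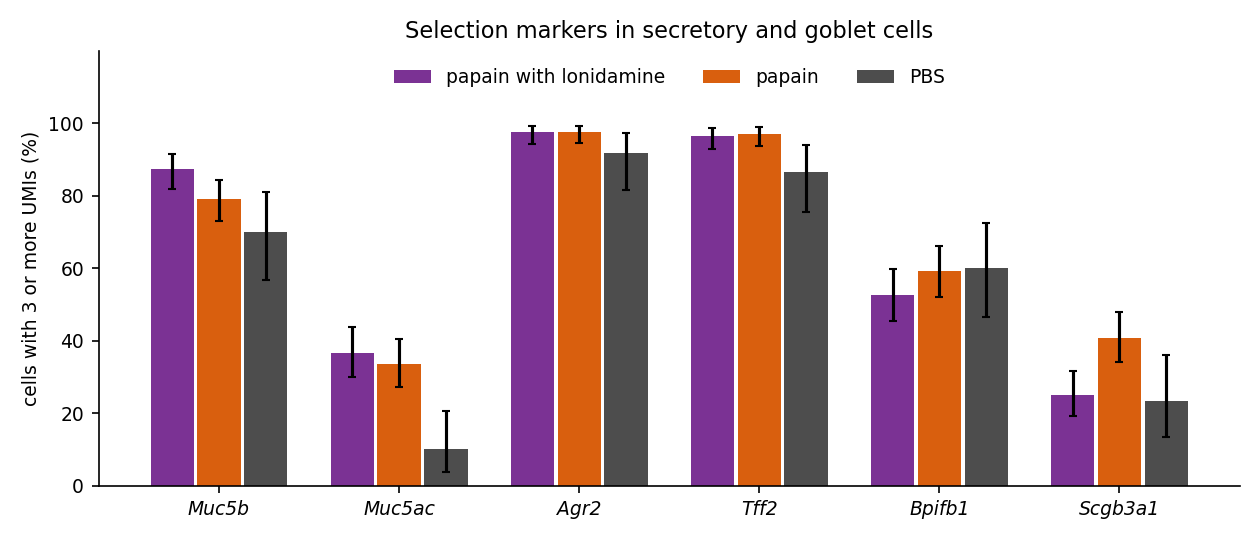
Percentage of secretory and goblet cells with at least 3 UMIs of each of the 6 selection markers, in papain with lonidamine (196 cells), papain (206) and PBS (60). Bars are shares and lines 95% exact binomial intervals; because the rule requires 3 of these genes, the bars describe the cells chosen.

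Nearly all selected cells at 3 or more UMIs of Muc5ac also held Muc5b, but both are selection genes. A rule that needs 3 of 6 genes favours cells with both, and 87.2%, 79.1% and 70.0% of all selected cells held Muc5b. All 72 Muc5ac cells with lonidamine, 67 of 69 in papain and all 6 in PBS also held Muc5b at 3 or more UMIs, while 42.1%, 41.1% and 14.3% of Muc5b cells held Muc5ac. The commonest combination was Muc5b with Agr2 and Tff2 alone (46, 44 and 17 cells), and all 6 markers together were found in 9 cells with lonidamine and 22 in papain. Cells with Muc5ac differed from the others of their library in genes outside the rule. With lonidamine they held Itln1 at 1099 CPM against 462 CPM in cells below 3 UMIs of Muc5ac, Fcgbp at 805 against 260 CPM and Reg3g at 33859 against 18147 CPM. In papain the same genes stood at 739 against 276 CPM, 296 against 89.6 CPM and 36877 against 23358 CPM. Scgb1c1 ran the other way, at 4837 against 26705 CPM with lonidamine and 9479 against 16307 CPM in papain. In PBS, where 6 cells held Muc5ac, Itln1 stood at 29.9 against 67.7 CPM, Fcgbp at 59.8 against 26.7 CPM, Reg3g at 11348 against 16465 CPM and Scgb1c1 at 107684 against 5746 CPM. The highest PBS cell reached 295043 CPM of Scgb1c1, against 3706 CPM in the median PBS cell, so few cells can set that value. Bpifa1 stood at 24505 against 207717 CPM in PBS, at 116403 against 123984 CPM with lonidamine and at 139950 against 175236 CPM in papain. The 6 PBS cells together were thus low in Bpifa1, unlike the Muc5ac cells of the treated libraries.

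Cells at the edge of the rule were not alike. Cells with exactly 3 markers numbered 74, 82 and 39, and barcodes that met the other conditions with exactly 2 numbered 322, 235 and 198. Just inside, Bpifa1 had 74268, 97229 and 162684 CPM and Tff2 had 1540, 1533 and 857 CPM. Just outside, Bpifa1 had 19933, 21388 and 27107 CPM and Tff2 had 241, 320 and 110 CPM, while Muc5b (4193, 2860 and 2108 CPM) was close to its level inside (5604, 3181 and 1907 CPM). The limit on the Alox12e set removed 85, 112 and 2 otherwise eligible barcodes, and a Ptprc UMI alone removed 10, 26 and 6. Of the cells kept, 106, 119 and 44 carried exactly 2 genes of that set, most often Serpinb11 (73.0%, 87.4% and 90.0% of cells) and Kcnj16 (57.7%, 54.4% and 73.3%).

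Papain was compared with PBS across all genes of these cells to ask how secretory cells differ in the inflamed nose. Of 5813 genes with a mean of at least 20 CPM, 172 (2.96%) were at least 2-fold higher and 293 (5.04%) at least 2-fold lower in papain, with a median log2 ratio of -0.15 over all genes. Intervals lay wholly beyond 2-fold for 76 and 93 of them. Genes of mucus, type 2 response, chemokines and epithelial surface proteins stood among the higher genes, and genes of sterol synthesis and energy metabolism among the lower. The PBS side rests on 60 cells, so 1 cell can carry a gene there.

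Among mucus proteins outside the rule, Fcgbp and Itln1 were both at least 2-fold higher in papain. Fcgbp, a large protein bound to mucins, had 442 CPM with lonidamine, 159 CPM in papain and 30.4 CPM in PBS, a log2 ratio of papain to PBS of 2.36 [1.90, 2.91]. After thinning it was detected in 56.1%, 32.0% and 15.5% of cells (unthinned 75%, 46.6% and 31.7%), and in 1.74%, 1.76% and 0.0786% of neurons. The 3 libraries were therefore ordered, with lonidamine highest. Itln1, a lectin that binds microbial glycans, had 674, 431 and 63.4 CPM, a papain to PBS log2 ratio of 2.76 [2.43, 3.12]. Within the commonest marker combination, however, Itln1 stood at -0.04 between papain and PBS, while Fcgbp stood at 2.02 there. Of 5 other mucins tested only Muc2 was past 2-fold (52.4, 65.7 and 11 CPM), and it was higher in neurons (113, 133 and 13.0 CPM), a level at which free RNA cannot be told apart from expression. The membrane mucins Muc1 (-0.01), Muc20 (0.00), Muc16 (0.25) and Muc4 (0.32) were within 2-fold.

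Of 9 type 2 response genes tested, Chil4 and Msln were at least 2-fold higher in papain, none was lower, and the median log2 ratio was 0.70. For all tested genes of these cells 2.96% were higher, 5.04% lower and the median was -0.15. In all other kept barcodes together 7 of 13 were at least 2-fold higher and none lower, with a median of 1.10. Over all 7665 tested genes of those barcodes 413 were higher and 163 lower. The median there was -0.04, and the cell makeup of those barcodes differs between libraries. Chil4, a chitinase-like protein induced in type 2 inflammation, had 7691 CPM with lonidamine, 16539 CPM in papain and 703 CPM in PBS, and the papain to PBS log2 ratio was 4.56 [4.46, 4.66]. Most PBS cells had none of it, and 33.6% of the PBS UMIs came from 1 cell. Chil4 UMIs were also found in neurons of the treated libraries, which held 554, 1377 and 0.523 CPM, and after thinning 21.7%, 40.0% and 0.197% of neurons had a UMI, against 70.4%, 78.7% and 17.2% of secretory and goblet cells (unthinned 85.2%, 91.3% and 21.7%). Msln, the surface protein mesothelin, had 166, 221 and 30.4 CPM (2.84 [2.38, 3.38]). In papain Msln stood at a lower CPM in these cells than in all other kept barcodes together, and the part of other cells' RNA was not tested. The lipoxygenase Alox15 had 114, 89.9 and 55.0 CPM (0.70), the receptor chain Il13ra1 68.0, 69.8 and 66.8 CPM (0.06), and the feedback regulator Socs3 150, 110 and 144 CPM (-0.39).

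Of 9 goblet transcription factors tested, 3 were at least 2-fold higher in papain and 1 was lower, against 2.96% and 5.04% of all tested genes. All other kept barcodes together had 4 of 7 higher and none lower, against 413 higher and 163 lower of all 7665 genes tested there. Creb3l1, a factor of the secretory pathway, had 116, 98.1 and 33 CPM (1.56 [1.09, 2.09]), and neurons held 78.7, 79.2 and 50.8 CPM. Its relative Creb3l4 had 42.3, 28.3 and 10.1 CPM (1.43) and the epithelial factor Ehf had 225, 225 and 112 CPM (1.0). Stat6, which carries the interleukin-4 and interleukin-13 signal, had 15.9, 14.0 and 33.8 CPM (-1.27 [-1.91, -0.63]). Spdef, the goblet cell factor, had 45.4, 29.2 and 27.1 CPM, a ratio of 0.09 [-0.48, 0.73] between papain and PBS. Neither Spdef nor Foxa1 (139, 153 and 131 CPM) differed beyond counting error in that pair.

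Of 20 unfolded protein response genes, Sdf2l1 (83.4, 85.8 and 29.6 CPM, 1.52) and the disulfide isomerase Pdia5 (26.4, 28.6 and 12.7 CPM, 1.13) were at least 2-fold higher in papain and the stress factor Ddit3 (45.4, 30.4 and 66.8 CPM, -1.14) was lower, with a list median of 0.43. Of 24 secretion genes, Ssr4, a subunit of the translocon-associated complex, was past 2-fold (515, 564 and 280 CPM, 1.01), and the median was 0.42. Of 15 genes of mucin glycosylation, Galnt3 was past 2-fold upward and St3gal1 downward, with a median of -0.01. Over all tested genes 2.96% were higher and the median was -0.15.

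Antimicrobial and acute phase genes were uneven: 5 of 14 were at least 2-fold higher in papain, 1 was lower, and the median was 0.46. Over all tested genes 2.96% were higher and 5.04% lower. The rise was not particular to these cells: in all other kept barcodes together 10 of 16 were higher and none lower, with a median of 1.86. Those barcodes had 413 of all 7665 tested genes higher and 163 lower. Lactoferrin (Ltf) had 3566, 3558 and 1079 CPM (1.72), the peptidoglycan-binding Pglyrp1 1624, 1441 and 651 CPM (1.15) and complement C3 700, 471 and 234 CPM (1.01). The WAP-domain gene Wfdc18 had 7723, 5920 and 1237 CPM (2.26), with 60.7% of the PBS UMIs in 1 cell. The median cell held 66.0, 58.0 and 0 CPM of Wfdc18, against single cells of up to 108299, 111342 and 21840 CPM, so few cells carried the sums in each library. Its papain to PBS ratio was -0.25 in male cells, 5.34 in female cells and 8.0 without cells carrying markers of another type, where 16 PBS UMIs remained. Wfdc18 is itself a serous gland marker by which cells were left out, so the value of 8.0 is shifted by that choice. Reg3g was within 2-fold (0.81), and Lcn2, which binds bacterial siderophores, stood at 2530, 3992 and 3751 CPM (0.09). The acute phase gene Saa3 was lower in papain at 48.4, 31.8 and 113 CPM (-1.83), with 65.7% of the PBS UMIs from 1 cell.

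Of 14 chemokine and alarmin genes, 6 were at least 2-fold higher and 2 lower in papain, with a median of 0.67. The shares over all tested genes were 2.96% higher and 5.04% lower. All other kept barcodes together had 11 of 17 higher and none lower, with a median of 1.44. Those barcodes had 413 of all 7665 tested genes higher and 163 lower. The neutrophil attractant Cxcl2 had 548, 581 and 84.5 CPM (2.77 [2.49, 3.09]) and Cxcl1 had 389, 240 and 86.2 CPM (1.47), with 46.0% and 60.8% of the PBS UMIs of these genes in 1 cell. In papain Cxcl2 stood at a lower CPM in these cells than in all other kept barcodes together. The part of other cells' RNA in its ratio was not tested. The growth factor Hbegf, a ligand of the EGF receptor, had 215, 202 and 78.6 CPM (1.36), and Ccl28, an epithelial chemokine, had 40.5, 50.8 and 17.8 CPM (1.49). Cxcl10 had 45.4, 57.5 and 1.69 CPM, where the PBS value is 2 UMIs, so that its ratio of 4.77 [3.22, 8.14] is loosely bounded. Like Cxcl2, Cxcl10 stood at a lower CPM in these papain cells than in all other kept papain barcodes. Both lower genes, Csf3 and Il25, held 98.9% and 100% of their PBS UMIs in 1 cell.

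The other genes with the highest ratios included surface and barrier proteins. Clca3a2, of the calcium-activated chloride channel regulator family, had 84.3, 169 and 4.23 CPM (5.19), found in 17, 23 and 1 cells. All PBS UMIs of Clca3a2 were in 1 cell, which carried markers of another type, so no ratio is given without such cells. Cd177, a surface glycoprotein best known from neutrophils, had 60.7, 40.6 and 0.845 CPM (5.0) and was found in 58, 45 and 1 cells, the PBS value being 1 UMI. Sprr1a, a precursor of the cornified envelope, had 82.8, 82.9 and 9.30 CPM (3.09, and 4.54 without cells carrying markers of another type, where 2 PBS UMIs remained). Gkn3, a gastrokine, had 92.3, 70.6 and 10.1 CPM (2.74, with 58.3% of PBS UMIs in 1 cell), the glutathione transferase Gsto2 had 42.6, 61.0 and 9.30 CPM (2.65), and the ferlin Fer1l6 had 170, 96.9 and 16.1 CPM (2.56, but 0.10 within the commonest marker combination). Gm14636 (2.86) and Tnfsf13os (2.58) completed the list, the second of them an antisense gene whose reads cannot be told from those of its partner where strand is not counted.

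Among barrier genes, 4 of 20 keratins and junction proteins were at least 2-fold higher in papain and none lower, with a median of 0.30. The shares over all tested genes were 2.96% higher and 5.04% lower. All other kept barcodes together had 12 of 23 higher and none lower, with a median of 1.11. Those barcodes had 413 of all 7665 tested genes higher and 163 lower. The tight junction protein Cldn4 had 223, 408 and 145 CPM (1.49 [1.26, 1.73]), and Krt17, Krt14 and Krt15, keratins of basal and stressed epithelium, stood at 2.71, 2.06 and 1.71. Basal markers as a list summed to 245, 214 and 91.3 CPM in these cells, with 41.2% of papain and 87.5% of PBS Krt14 UMIs and 77.1% of PBS Krt15 UMIs in 1 cell, and the part of basal cells in these ratios was not tested. Krt8 (0.10), Epcam (0.05) and Cldn7 (-0.04) were level. Of 18 ion and fluid transport genes none was past 2-fold. The water channel Aqp5 had 568, 507 and 789 CPM (-0.64), the cotransporter Slc12a2 737, 623 and 785 CPM (-0.33), and the chloride channel Ano1 182, 151 and 148 CPM (0.03).

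Of the lists with at least 5 tested genes, sterol synthesis stood furthest below PBS. Of 18 tested genes of cholesterol synthesis and its control, 16 were at least 2-fold lower in papain and none higher, with a median log2 ratio of -1.34. For all tested genes 5.04% were lower and the median was -0.15. Hmgcs1, which makes the HMG-CoA used by the pathway, had 129 CPM with lonidamine, 72.1 CPM in papain and 209 CPM in PBS (-1.53 [-1.79, -1.27]). Msmo1 and Nsdhl, which remove methyl groups from sterols, had 51.5, 37.7 and 164 CPM (-2.12 [-2.46, -1.79]) and 15.6, 9.34 and 38.0 CPM (-2.02 [-2.73, -1.34]). Dhcr7, the enzyme of the last step, had 13.5, 11.1 and 55.8 CPM (-2.32 [-2.95, -1.73]), and the synthase Fdps had 77.9, 68.0 and 211 CPM (-1.63). Pmvk (0.06) and the transcription factor gene Srebf2 (-0.17) were level. No single cell held more than 13.6% of the PBS UMIs of any of the 18 genes. Neuron markers summed to 617, 409 and 1497 CPM in these cells; without cells carrying markers of another type 18 of 20 tested sterol genes were at least 2-fold lower, with a median of -1.66. With at least 2 markers in place of 3, 5 of 14 were lower, with a median of -0.80, and within the commonest marker combination 10 of 18 were. In all other kept barcodes together 9 of 18 genes were at least 2-fold lower in papain, against 163 of all 7665 genes tested there. The median was -1.01 against -0.04 over all genes, and those barcodes differ in cell makeup between libraries.

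The promoters of these genes were searched for letters of the CCAAT box and of the core of the sterol regulatory element, TCACCCCA, on both strands of windows from 250 bases before to 50 after the start (RefSeq, GRCm38.p6). Of the 18 genes 12 had a window, and 12 of 12 held CCAAT in at least 1 window, against 41.1% of all genes with a window. TCACCCCA was in the windows of 2 of them, Hmgcs1 and Srebf2, against 1.77% of all genes. A match describes letters only. Hmgcs1 is shown because it holds both, and Msmo1 and Nsdhl because they had among the lowest ratios. Capitals mark matches in either direction (ATTGG is CCAAT read from the other strand), and each sequence runs 5′ to 3′ on the gene's strand: Hmgcs1 at chr13:119690101-119690400 (plus), Msmo1 at chr8:64733529-64733828 (minus) and Nsdhl at chrX:72918271-72918570 (plus).
Hmgcs1: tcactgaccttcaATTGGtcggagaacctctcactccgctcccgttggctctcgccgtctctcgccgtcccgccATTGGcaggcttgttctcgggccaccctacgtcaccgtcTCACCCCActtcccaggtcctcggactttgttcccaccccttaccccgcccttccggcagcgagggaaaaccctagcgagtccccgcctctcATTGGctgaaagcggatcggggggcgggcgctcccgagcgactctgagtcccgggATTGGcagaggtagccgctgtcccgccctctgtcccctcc
Msmo1: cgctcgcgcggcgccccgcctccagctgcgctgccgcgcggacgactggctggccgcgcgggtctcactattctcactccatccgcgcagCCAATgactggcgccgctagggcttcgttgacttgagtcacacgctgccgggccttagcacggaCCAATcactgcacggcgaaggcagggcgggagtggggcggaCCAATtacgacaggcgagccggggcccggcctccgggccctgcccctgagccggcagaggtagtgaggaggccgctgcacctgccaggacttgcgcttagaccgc
Nsdhl: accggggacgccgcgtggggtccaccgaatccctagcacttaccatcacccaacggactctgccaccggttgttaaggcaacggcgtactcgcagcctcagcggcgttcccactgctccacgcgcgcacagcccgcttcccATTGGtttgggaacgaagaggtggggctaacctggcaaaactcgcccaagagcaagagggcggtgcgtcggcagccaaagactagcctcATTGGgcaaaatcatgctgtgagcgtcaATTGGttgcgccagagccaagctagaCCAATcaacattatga

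Energy metabolism had lower genes and none higher. Of 11 glycolysis genes 4 were at least 2-fold lower and none higher (median -0.83), where 5.04% of all tested genes were lower and their median was -0.15. The aldolase Aldoa had 302, 285 and 698 CPM (-1.29 [-1.43, -1.16]), the enolase Eno1 32.2, 31.5 and 91.3 CPM (-1.53) and the triose phosphate isomerase Tpi1 141, 125 and 299 CPM (-1.26), while Gapdh had 493, 482 and 760 CPM (-0.66). Of 33 nuclear genes of oxidative phosphorylation 6 were at least 2-fold lower (3 with median-ratio scaling) and the median was -0.52. Cox8b, a subunit of cytochrome oxidase, was lowest at 42.6, 27.4 and 288 CPM (-3.39 [-3.74, -3.06]), and the coactivator gene Ppargc1a had 52.7, 45.0 and 151 CPM (-1.75). Cox8b did not meet the conditions set for genes named by their ratio. It was in fewer than 10% of PBS cells, or at a lower CPM there than in all other kept PBS barcodes. The part of other cells' RNA in its ratio was not tested. Chchd10, a mitochondrial intermembrane protein, had 356, 213 and 724 CPM (-1.76). In all other kept barcodes together the medians were -0.66 for glycolysis and -0.51 for oxidative phosphorylation.

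**Figure D4:**
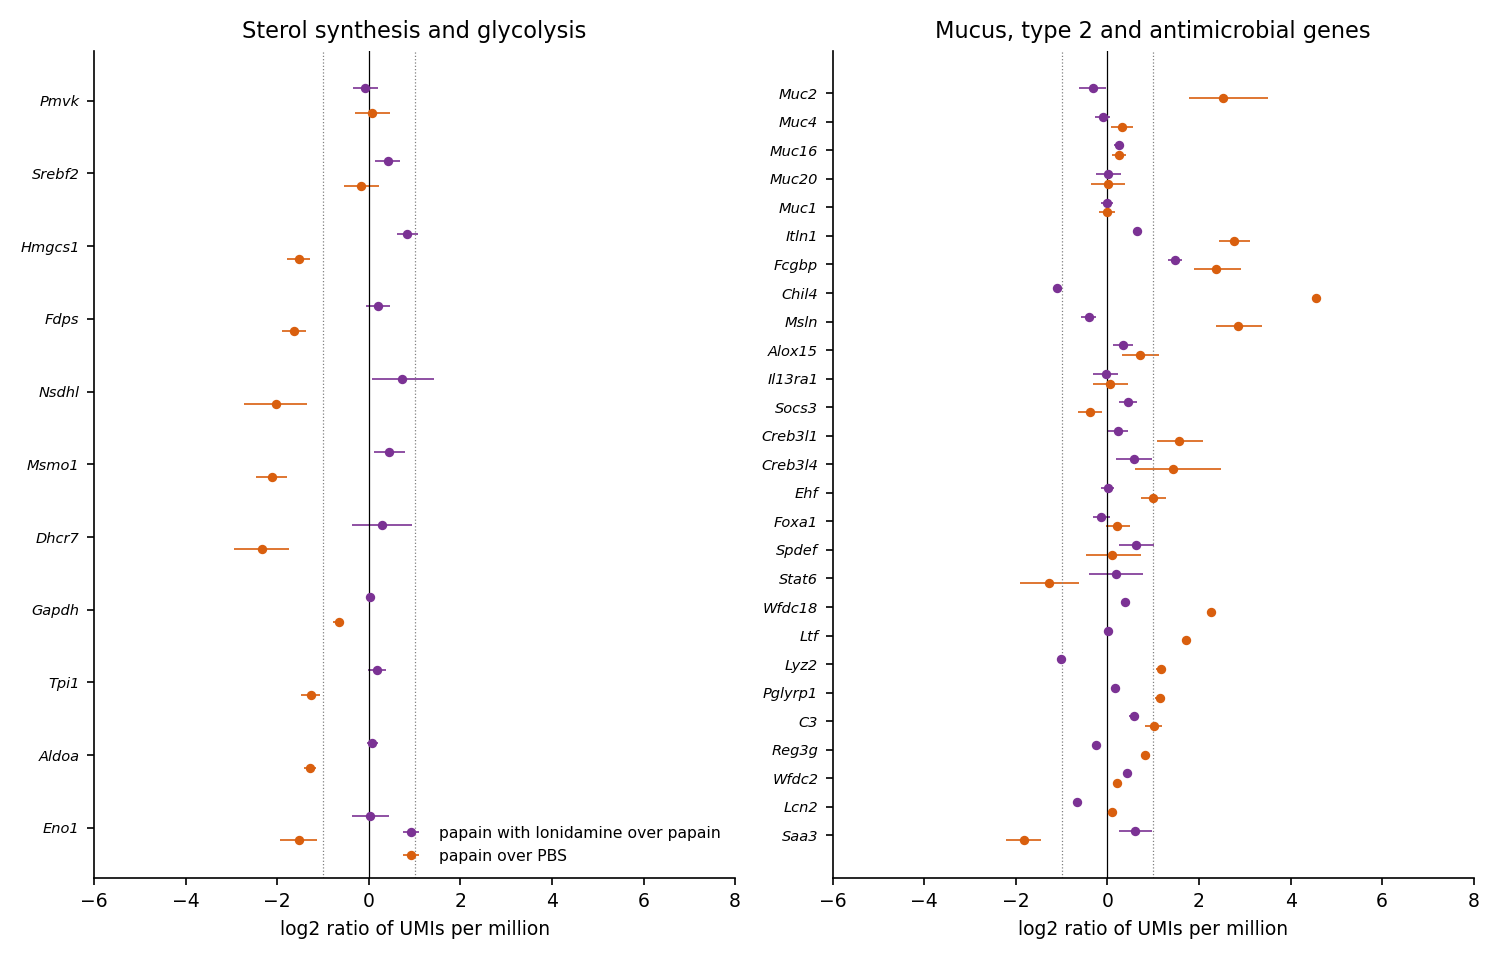
Log2 ratios of summed CPM for the genes named in the text from 2 metabolic lists (left, sterol synthesis above glycolysis) and of mucus, type 2, transcription factor and antimicrobial lists (right), for papain with lonidamine over papain (purple) and papain over PBS (orange). Points are ratios, lines 95% counting intervals and dotted lines 2-fold; Hmgcs1, Fdps, Nsdhl, Msmo1 and Dhcr7 lay between -1.53 and -2.32 for papain over PBS, Pmvk and Srebf2 near 0, and all of these within 2-fold for papain with lonidamine over papain.

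Among the remaining genes with the lowest ratios, Pnpla7, a lysophospholipase, had 12.6, 7.30 and 58.3 CPM (-2.98 [-3.72, -2.32]), and Tmem86a, a lysoplasmalogenase, had 16.9, 9.05 and 55.8 CPM (-2.61). Slc16a7, the monocarboxylate transporter MCT2 and one of the transporters lonidamine can block, had 20.5, 14.9 and 80.3 CPM (-2.43 [-2.95, -1.93]). It was found in 50, 41 and 41 cells, the last of these being 41 of 60 PBS cells. The matrix genes Lox (-2.30), Dcn (-2.03) and Pcolce (-1.88) followed, but 53.6% of PBS Dcn UMIs came from 1 cell, without the highest cell of each library Dcn stood at -1.08, without cells carrying markers of another type at -0.68, and within the commonest marker combination at 0.49. Dcn is itself a fibroblast marker by which cells were left out, so the value of -0.68 is shifted by that choice. The netrin receptor gene Unc5b had 16.2, 11.7 and 43.1 CPM (-1.88) and Klhdc7a had 18.7, 11.7 and 41.4 CPM (-1.82).

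Papain with lonidamine was compared with papain to ask how these cells differ when the drug is given. Of 5813 genes, 72 (1.24%) were at least 2-fold higher and 14 (0.241%) at least 2-fold lower with lonidamine, with a median log2 ratio of 0.09. Intervals lay wholly beyond 2-fold for 35 and 8. The comparison shares the papain library with the previous one, so a low or high papain value enters both. Cells with markers of another type were 26.5% with lonidamine against 10.2% in papain, and without them 30 genes were higher and 17 lower.

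Fcgbp was the mucus gene that differed most. At 442 CPM with lonidamine against 159 CPM in papain its log2 ratio was 1.47 [1.33, 1.62]. The ratio was 1.28 in female cells and 1.79 within the commonest marker combination, and Fcgbp UMIs were found in 147 of 196 against 96 of 206 cells. The 4 male cells with lonidamine held 3 UMIs of it. Itln1 (0.64), Spdef (0.63), Creb3l4 (0.58) and Galnt7 (0.45), a transferase that starts mucin glycosylation, were higher by less than 2-fold with intervals above 0. Among the selection genes Muc5b stood 0.72 and Muc5ac 0.76 above papain, and Scgb3a1 (-0.56) and Bpifb1 (-0.81) below. None of the 15 glycosylation, 24 secretion or 20 unfolded protein response genes was past 2-fold in either direction.

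Chil4 was lower with lonidamine at 7691 against 16539 CPM (-1.10 [-1.13, -1.08]). The direction was not shared by all cells: female cells had 8053 CPM with lonidamine against 23808 CPM in papain, the 4 male cells with lonidamine had 14415 CPM against 2213 CPM in 52 male papain cells, and within the commonest marker combination the ratio was 0.61. In neurons, which should lack the gene, the level was also lower with lonidamine (554 against 1377 CPM). The other type 2 genes were within 2-fold, with Msln at -0.41 and Alox15 at 0.34, and the median of the 9 was -0.04.

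Of 5 interferon genes tested 2 were past 2-fold downward, Bst2 with 11.3 against 39.4 CPM and 32.1 CPM in PBS (-1.78 [-2.36, -1.26]) and Ifi27l2a with 115 against 266 CPM and 65.9 CPM in PBS (-1.21). Ifi27l2a rested on few cells: 58.3% and 26.2% of its UMIs came from 1 cell, without cells carrying markers of another type the ratio was -0.75, and with at least 4 markers required it was 1.27. Oasl2, an antiviral enzyme, had 14.1 against 28.0 CPM (-0.98), with 18.6 CPM in PBS, and Irf1 had 173 against 138 CPM (0.33), with 60.0 CPM in PBS. The urokinase receptor Plaur had 82.4 against 164 CPM (-0.99 [-1.21, -0.78]), with 40.6 CPM in PBS, and Cldn4 223 against 408 CPM (-0.87 [-1.0, -0.74]), with 145 CPM in PBS. Cxcl5, a neutrophil chemokine, had 15.9 against 82.9 CPM (-2.37), with 51.6 CPM in PBS and with 38.5% and 21.5% of UMIs from 1 cell in the treated libraries, whereas Cxcl1 was higher at 389 against 240 CPM (0.69). In papain Cxcl5 stood at a lower CPM in these cells than in all other kept barcodes together.

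The other genes lowest with lonidamine included the flavin monooxygenase Fmo1 (46.3 against 93.7 CPM, -1.02), the glycerol kinase Gk (71.4 against 127 CPM, -0.83) and the angiomotin gene Amot (12.9 against 23.4 CPM, -0.85), which stood in PBS at 37.2, 65.9 and 24.5 CPM. Clca3a2 had 84.3 against 169 CPM (-1.0), Gm17056 had 21.1 against 47.9 CPM (-1.17) and Gm14636 had 39.5 against 70.4 CPM (-0.83), and stood in PBS at 4.23, 27.1 and 9.30 CPM. Lyz2, lysozyme of phagocytes and some epithelia, had 908 against 1823 CPM (-1.01), with 812 CPM in PBS, and within the commonest marker combination 1.12. That gene is on the leukocyte list too, of whose 13 markers 9 had UMIs with lonidamine, 9 in papain and 6 in PBS. The list summed to 962, 1842 and 828 CPM, Lyz2 included, and 1 cell with lonidamine and none in papain or PBS carried at least 3 of its markers; Ptprc was at 0 by the rule. The part of leukocyte RNA in this ratio was not tested.

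Several of the highest genes with lonidamine code for proteins of cilia or centrioles. Ccdc181 (36.2 against 9.34 CPM, 1.94), Cfap45 (38.3 against 10.5 CPM, 1.85), Tppp3 (106 against 35.6 CPM, 1.57), Rsph1 (87.0 against 30.7 CPM, 1.5) and Cfap126 (43.2 against 17.5 CPM, 1.30) were found in 21 to 33 of 196 cells. In PBS they stood at 22.8, 24.5, 38.0, 76.1 and 38.9 CPM. AU040972 (67.1 against 11.1 CPM, 2.58), which is on none of the gene lists, was found in 22 cells with lonidamine and had 9.30 CPM in PBS. Cfap45, Cfap126 and Rsph1 are axoneme proteins, and Mdm1 (30.0 against 12.6 CPM, 1.25, with 23.7 CPM in PBS) and Cep83 (57.9 against 24.5 CPM, 1.24, with 30.4 CPM in PBS) are associated with centrioles. All 7 tested ciliated markers were at least 2-fold higher with lonidamine than in papain, and the marker list summed to 565 CPM with lonidamine, 194 CPM in papain and 344 CPM in PBS, with 10, 4 and 2 cells carrying at least 3 of them. Olfactory neurons also held several of these genes, with 141, 141 and 108 CPM of Cfap126, 100, 139 and 128 CPM of Rsph1 and 60.7, 65.0 and 58.7 CPM of Cep83, and neuron markers summed to 617, 409 and 1497 CPM in secretory and goblet cells. The part of ciliated cells and neurons in these ratios was not tested. Without the cells that carried markers of another type the named ones stood at -0.58 (Tppp3), -0.22 (AU040972), 0.02 (Mdm1), 0.07 (Rsph1), 0.10 (Cep83), 0.22 (Cfap45), 0.38 (Ccdc181) and 0.45 (Cfap126). Tppp3, Rsph1 and Cfap126 are themselves among the ciliated markers by which cells were left out. Their ratios without those cells are shifted by that choice and are no check on them. The chemokine Ccl20 (159 against 52.5 CPM, 1.59, with 66.8 CPM in PBS) had 65.4% of its UMIs in 1 cell, without which it stood at 0.30.

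Genes outside cilia that were higher with lonidamine included Depp1, a gene induced by progesterone and FoxO factors, at 114 against 43.8 CPM (1.38 [1.10, 1.66]), with 96.4 CPM in PBS, and 2.28 in female cells. Tsc22d3, a glucocorticoid-induced leucine zipper gene, had 59.2 against 27.7 CPM (1.09 [0.73, 1.46]), with 23.7 CPM in PBS. Xenobiotic enzymes had 2 of 24 genes past 2-fold, Cyp1a1 (40.8 against 13.1 CPM, 1.62) and Cyp2b10 (59.5 against 28.9 CPM, 1.04), which stood in PBS at 26.2 and 52.4 CPM, both induced by foreign compounds in liver. The WAP-domain gene Wfdc3 (146 against 58.1 CPM, 1.33, and 0.80 without cells with markers of another type) was found in 27 and 16 cells, with 28.7 CPM in PBS. Of 4 BPI-fold genes tested 2 were higher and 1 lower: Bpifb4 had 2629 against 1184 CPM (1.15), Bpifb6 had 486 against 197 CPM (1.30) with 59.4% and 27.3% of UMIs in 1 cell, and Bpifb3 had 314 against 1676 CPM (-2.42) with 78.9% and 82.4% of UMIs in 1 cell. In PBS they stood at 456, 50.7 and 17.8 CPM. Serous gland markers were carried by 37 against 3 cells, and the part of gland cells in these values was not tested.

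Sterol genes stood between the other libraries with lonidamine. None of the 18 was past 2-fold against papain, and the median was 0.42 against 0.09 over all genes, but -0.22 within the commonest marker combination. Hmgcs1 had 129 against 72.1 CPM (0.84 [0.61, 1.08]) and Nsdhl 15.6 against 9.34 CPM (0.73). Against PBS 6 of 18 were at least 2-fold lower and none higher, where 181 (3.11%) of all tested genes were lower and 202 (3.47%) higher. Lonidamine targets themselves did not pass 2-fold: the hexokinases Hk1 (53.0 against 51.7 CPM, 0.04) and Hk2 (128 against 117 CPM, 0.14), the pyruvate carrier genes Mpc1 (0.10) and Mpc2 (0.01), and Ldha (272 against 238 CPM, 0.20) were near level. Glycolysis (0.08) and oxidative phosphorylation (0.09) had medians at that of all genes, with 0 of 11 and 0 of 33 genes past 2-fold.

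**Figure D5:**
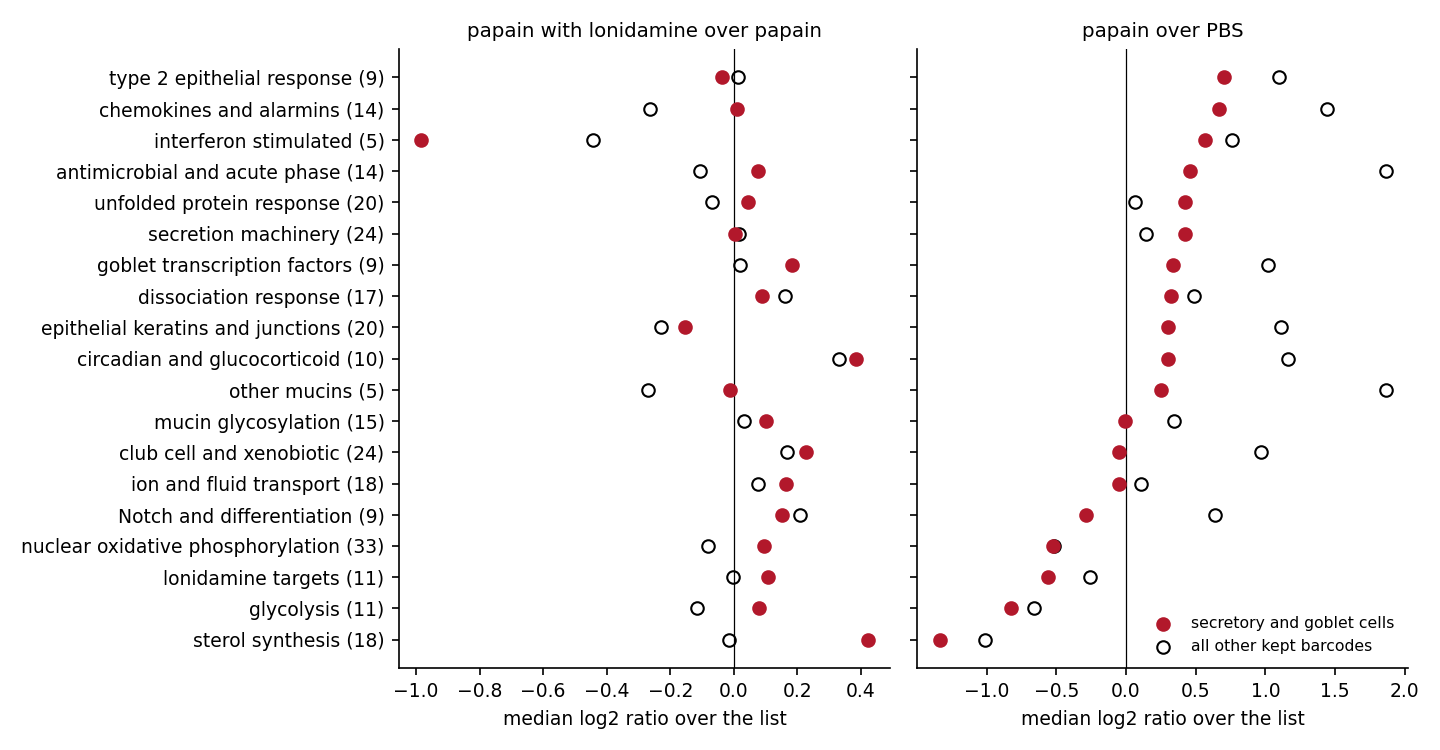
Median log2 ratio of each gene list with at least 5 tested genes (number in brackets) in secretory and goblet cells (red) and in all other kept barcodes summed (open), for papain with lonidamine over papain (left) and papain over PBS (right). Sterol synthesis was lowest for papain over PBS in both (-1.34 and -1.01), and the interferon list was lowest for papain with lonidamine over papain (-0.98); the open points also move with the cell makeup of each library.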

How the data were processed

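Nasal mucosa of each group was pooled and measured as 1 droplet single-cell RNA library. Per the file headers, the authors' deposited files hold UMI counts of 55357 genes per barcode made with software version 7.1.0, whereas the submitters' processing notes name Cell Ranger 2.1.1 and GRCm39. A barcode was kept if it had no fewer than 500 UMIs and 200 genes and no more than 20% of its UMIs from mitochondrial genes, and doublets were not removed. Counts of secretory and goblet cells were summed per library and scaled to CPM. Ratios are log2 with 0.5 counts added to each sum, over genes with a mean of at least 20 CPM, and a gene is called at 2-fold. Ratio intervals are conditional binomial and shares exact binomial, both at 95%. Groups of 1 library allow no test.

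The members and the 39 gene lists were chosen with earlier results of these data known. Named genes are the 12 highest and 12 lowest ratios per comparison among genes with a UMI in at least 10% of cells of the higher library, a CPM no lower than in all other kept barcodes of that library and an interval leaving out 0. Genes of the rule and mitochondrial, ribosomal, haemoglobin, immunoglobulin and sex genes were left out. Other genes named are from the lists and need not meet these conditions, and some list members are counted but not reported singly here. Where a symbol had several rows, the row with more UMIs was used, and 3 listed symbols were not matched. Ratios and intervals were tested on simulated counts. Scrublet was run in scanpy 1.11.5, under Python 3.11.15 with numpy 2.4.6, scipy 1.17.1 and pandas 2.3.3.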

Additional observations from a re-analysis of the deposited data

Results flagged for a closer look

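In 3 named genes the female and male cells differed in opposite directions under the same contrast, with both intervals leaving out 0. Other named genes, such as Unc5b, Pcolce, Fcgbp and Rsph1, also had opposite signs, but with a male interval that held 0. The difference between the sexes was not tested. Wfdc18 had a papain to PBS log2 ratio of 5.34 in female cells (5333 against 131 CPM) and -0.25 in male cells (4733 against 5640 CPM), where 65.2% of the male PBS UMIs came from 1 cell. Wfdc3 had a ratio of papain with lonidamine to papain of 1.43 in female cells (430 against 114 UMIs) and -3.04 in male cells (0 against 71 UMIs), the second value depending on the 0.5 counts added. Chil4 had a ratio of papain with lonidamine to papain of -1.56 in female cells (8053 against 23808 CPM) and 2.70 in male cells (14415 against 2213 CPM). Male cells with lonidamine number 4, so 1 mouse or 1 cell can set these values.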

How the results depend on the processing

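No paired analysis was possible because each group is 1 library. Of 108 shares and gene counts under other settings, 69 stayed near the main value and 39 did not. Share ratios that stayed lay within the main ratio's interval. Gene counts have no interval, and those that stayed changed by less than 1.5 times. The settings without cells carrying markers of another type and without the highest cell were chosen after seeing the data. The papain to PBS share ratio (3.05) was 4.22 with markers at 5 UMIs, 1.52 with at least 2 markers, 5.24 with at least 4, 4.40 with no limit on the Alox12e set, 1.95 in female and 7.29 in male cells, and 9.98 after thinning to 4000 UMIs. The lonidamine to papain share ratio (0.839) was 1.04 with at least 2 markers, 1.05 in female and 0.103 in male cells. For papain against PBS (172 higher, 293 lower), counts were 312 and 615 with at least 4 markers, 434 and 503 in male cells, 523 and 1225 after thinning, 94 and 102 at a mean of 50 CPM, 1665 and 5417 with no filter, and 491 and 574 within 1 marker combination. There were 275 higher in female cells, 278 higher without the highest cell and 190 lower with median-ratio scaling, where the shift over all genes was -0.14. For lonidamine against papain (72 higher, 14 lower), counts were 45 and 9 with markers at 2 UMIs, 1059 and 702 in male cells, 184 and 65 after thinning, and 3458 and 2684 with no filter. There were 28 higher with at least 2 markers, 119 with at least 4, 42 from the mean CPM of single cells, 24 at a mean of 50 CPM and 30 without cells carrying markers of another type, and 121 lower within 1 combination. Of 1256 values of named genes and lists, 28 changed sign. Dcn (papain to PBS) was 0.36 with markers at 5 UMIs, 0.84 in male cells, 0.12 after thinning and 0.49 within 1 combination. AU040972 (lonidamine to papain) was -0.078 with at least 2 markers, -0.41 in male cells, -0.17 after thinning and -0.22 without cells of other types. Ifi27l2a was 0.55 with at least 2 markers, 1.27 with at least 4 and 0.031 after thinning. In male cells the papain to PBS ratio was -0.25 for Wfdc18, 0.25 for Unc5b and 0.42 for Pcolce, and the lonidamine to papain ratio -0.13 for Ccdc181, -1.37 for Rsph1, -0.26 for Fcgbp, -3.04 for Wfdc3, -0.74 for Cfap126, -1.31 for Cep83, 2.70 for Chil4, 0.22 for Plaur and 1.01 for Amot. Within 1 combination Itln1 was -0.036 for papain to PBS, and for lonidamine to papain Cep83 was -0.69, Chil4 0.61 and Lyz2 1.12. Tppp3, itself a marker by which such cells were found, was -0.58 without cells of other types. The cause was not tested. The 60 PBS cells limit every ratio to PBS.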
